A study of Mus musculus with 11 samples.

Results

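The 10 genes described here encode 6 matrix metalloproteinases (Mmp2, Mmp9, Mmp11, Mmp13, Mmp14 and Mmp16) and the 4 tissue inhibitors of metalloproteinases (Timp1, Timp2, Timp3 and Timp4). They are 10 of the 24718 genes of the count table and were taken from it by gene symbol. The set was selected on values measured in these libraries, since the log2 differences between DOX4X and PBS were known when it was proposed, so its values in that comparison are a description, without a test, and support nothing.

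RNA was sequenced from mesenchymal stem and progenitor cells (MSPCs) of the bone marrow of female mice, which were isolated by their tdTomato fluorescence. Every mouse, controls included, had the genotype Lepr-Cre;LSL-tdTomato+/-, in which Cre recombinase made under the leptin receptor gene switches on the red reporter. The sort therefore takes any cell that has made Cre at some time, together with its descendants. The PBS group (4 libraries) had received 4 intravenous injections of phosphate-buffered saline, and the age of these mice is not given in the labels. The DOX1X group (3 libraries) were young adult mice given 1 intravenous injection of doxorubicin, an anthracycline chemotherapy drug that poisons topoisomerase II, at 10 mg/kg. The DOX4X group (4 libraries) were mice of 8 to 10 weeks given 4 injections of 5 mg/kg with 1 week between them. In all groups the cells were taken 8 weeks after treatment. The controls match DOX4X but not DOX1X in the number of injections, and DOX1X and DOX4X differ in both the dose and the number of injections. The labels number the libraries as biological replicates and do not say whether animals were pooled.

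The PBS libraries held 29540422 to 42784036 counts each, the DOX1X libraries 33496356 to 42002065 and the DOX4X libraries 31129352 to 36888310. PBS 4 has labels that disagree: its title carries the abbreviation for doxorubicin, whereas its treatment label and its library name are those of a control. It was kept in PBS, and values without it are given where a result rests on it. By the column names, flow cell 1 held all of PBS with DOX1X 1 and 2, and flow cell 2 held all of DOX4X with DOX1X 3, so that flow cell and treatment cannot be told apart between DOX4X and PBS without the DOX1X libraries. Marrow stromal markers were high in all groups, in CPM (counts scaled to a common library size). The sum of 10 such markers was 69269 to 79350 CPM in PBS, 63287 to 79611 in DOX1X and 63395 to 74992 in DOX4X. Cxcl12 made up most of each sum, at 46059 to 59804 CPM, and Lepr was at 3939 to 7662 CPM. In these bulk libraries, fewer cells of a type and less RNA per cell cannot be told apart.

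Matrix metalloproteinases are zinc-dependent enzymes that cut collagens, proteoglycans and other proteins outside the cell. Most are secreted as inactive precursors and some sit in the plasma membrane, and the TIMPs bind the active site of the mature enzymes and block it. In bone, MMP-13, MMP-9 and MMP-14 take part in the turnover of collagen and mineralised matrix, and stromal and osteoblast-lineage cells are a known source of MMP-13.

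Of the 10 genes, 7 had an entry in the RefSeq promoter table, which is on the build GRCm38.p6, whereas the counts were made on GRCm39. The 250 bases before the transcription start of Mmp13 and of Timp1 are shown because these genes, with Mmp9, lay farthest below PBS in the mice given 4 injections. Mmp2, Mmp9 and Mmp16 had no entry. For Mmp13 this is chr9:7272264-7272513 on the plus strand, and for Timp1 chrX:20869916-20870165 on the plus strand. Capitals mark matches on either strand to the motifs TGANTCA (AP-1), TGTGGT (RUNX) and GGGCGG (GC box), which do not overlap one another here.

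Mmp13: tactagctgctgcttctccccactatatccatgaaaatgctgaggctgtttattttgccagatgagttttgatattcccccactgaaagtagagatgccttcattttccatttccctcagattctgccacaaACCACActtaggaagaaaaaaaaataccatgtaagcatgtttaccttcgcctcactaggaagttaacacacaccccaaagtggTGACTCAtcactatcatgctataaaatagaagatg

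Timp1: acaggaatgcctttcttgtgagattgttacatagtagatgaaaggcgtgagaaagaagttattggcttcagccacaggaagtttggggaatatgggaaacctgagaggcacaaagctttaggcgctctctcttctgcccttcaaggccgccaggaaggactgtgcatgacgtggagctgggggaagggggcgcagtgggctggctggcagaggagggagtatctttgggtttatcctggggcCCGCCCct

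The Mmp13 window held TGACTCA at 35 to 29 bases before the start and ACCACA, the RUNX motif on the minus strand, at 118 to 113 bases. The Timp1 window held CCGCCC, the GC box on the minus strand, at 8 to 3 bases. Among the 7 windows, the AP-1 letters occurred in that of Mmp13 alone, the RUNX letters in Mmp13 and Mmp14, and the GC box in Mmp11, Mmp14, Timp1, Timp2 and Timp3. Of 32851 windows of this length over 27025 genes, 6.75% held the AP-1 letters, 14% the RUNX letters and 32.7% the GC box. A match describes the sequence and is no evidence that a factor binds there.

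Mmp13 was the most abundant metalloproteinase transcript and Timp2 the most abundant inhibitor in every group. Levels are CPM with TMM scaling, as mean ± SD, and the levels of genes were ranked against each other after division by length. Per kilobase of coding sequence in PBS, Mmp13 stood at 2663 ± 345 CPM (n = 4) and Timp2 at 1771 ± 195. Timp3 at 431 ± 87.9 and Mmp14 at 329 ± 59.2 followed, and their spreads overlap. Mmp2 (120 ± 51.02) and Timp1 (94.0 ± 13.2) were next among the 10 and also overlap, then came Mmp11 (60.5 ± 10.1), Timp4 (41.7 ± 12.4) and Mmp9 (34.5 ± 15.1) with spreads that overlap along this order. Mmp16 was the lowest, at 7.01 ± 2.81 CPM per coding kilobase. Per kilobase of all exons, a choice made after seeing the data, Mmp13 (1411 ± 183) and Timp2 (300.1 ± 32.98) kept ranks 1 and 2, while Timp3 moved from rank 3 to rank 7 of the 21 MMP and TIMP genes tested.

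The collagenase Mmp13, which cleaves fibrillar collagens, was lower in every doxorubicin library than in any control. Its level was 3193, 3852, 4373 and 3663 CPM in PBS 1 to 4. After 1 injection it was 1558, 2093 and 2528 CPM, and after 4 injections 1896, 1726, 1133 and 1491 CPM. The lowest control lay above the highest treated library, while DOX1X and DOX4X overlapped, since DOX4X 1 lay above DOX1X 1. The group means were 3770 ± 488 CPM (n = 4), 2060 ± 486 (n = 3) and 1561 ± 330 (n = 4). On the fitted scale DOX4X stood at 41.4% of PBS (log2 difference -1.27, SE 0.18). DOX1X stood at 54.6% of PBS (-0.87, SE 0.20) and was not past the threshold by edgeR's quasi-likelihood test (adjusted p = 0.515 over all genes).

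**Figure D1:**
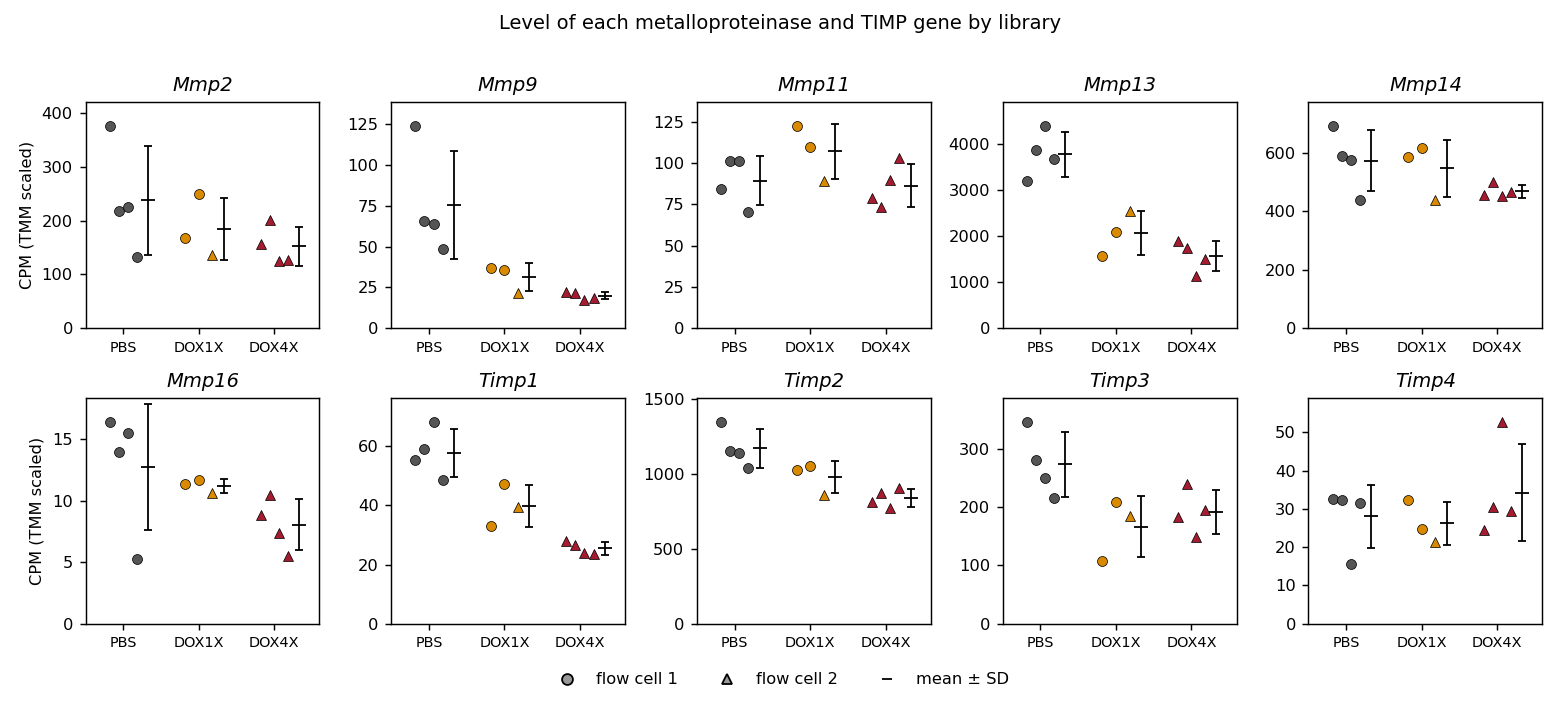
Each panel plots 1 gene, with its level in CPM (TMM scaled, linear axis from 0) for each library of PBS, DOX1X and DOX4X. Circles are libraries of flow cell 1, triangles those of flow cell 2, and bars the mean ± SD of the group. For Mmp13, Mmp9 and Timp1 the control points lie above all treated points, and for Mmp11 and Timp4 the groups overlap.

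The gelatinases Mmp9 and Mmp2 digest denatured collagen and basement membrane collagen. Mmp9 was 124, 65.9, 63.9 and 48.5 CPM in PBS 1 to 4, 36.6, 36.0 and 21.4 in DOX1X, and 22.1, 21.8, 17.5 and 18.6 in DOX4X. No treated library reached the lowest control, and the 4 DOX4X libraries were closer together (SD 2.31) than the controls (SD 33.1), among which PBS 1 was the highest. DOX4X stood at 26.5% of PBS (log2 difference -1.92, SE 0.27), or -1.57 without PBS 1. The log2 difference was -1.16 with flow cell as a term, which rests on DOX1X 3, the lone DOX1X library of flow cell 2. DOX1X stood at 41.5% of PBS (-1.27, SE 0.29, edgeR adjusted p = 0.515). Mmp2 had its highest and lowest control in the same libraries, with 376, 219, 226 and 132 CPM in PBS 1 to 4. It was 168, 250 and 136 CPM in DOX1X and 156, 201, 125 and 126 CPM in DOX4X, so all groups overlapped. Its log2 difference between DOX4X and PBS was -0.65 (SE 0.29) and was -0.34 without PBS 1, and that between DOX1X and PBS was -0.37 (SE 0.31, edgeR adjusted p = 0.797), or -0.066 without PBS 1 and -0.19 without DOX1X 3. It was -0.57 without PBS 4 and -0.65 without DOX1X 2.

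Mmp14 and Mmp16 encode membrane-type metalloproteinases, and the Mmp14 product, which cleaves collagen at the cell surface, also activates the Mmp2 precursor in a complex with Timp2. Mmp14 lay between 440 and 692 CPM in the controls (574 ± 103), between 438 and 618 in DOX1X (547 ± 96.3) and between 453 and 502 in DOX4X (468 ± 22.6). The lowest control was PBS 4, which lay below all 4 DOX4X libraries. Mmp16 was 16.4, 13.9, 15.5 and 5.24 CPM in PBS 1 to 4, while DOX1X spanned 10.6 to 11.7 and DOX4X 5.53 to 10.4. For Mmp16 PBS 4 was the lowest of all libraries, and its removal moved the log2 difference between DOX4X and PBS from -0.67 (SE 0.30) to -0.93 (SE 0.19). All 4 DOX4X libraries were below the 3 DOX1X libraries for Mmp16 (log2 difference -0.48, SE 0.32, edgeR adjusted p = 1.00). Mmp11, stromelysin-3, which furin activates inside the cell, gave 89.3 ± 14.9 CPM in PBS, 107.0 ± 16.7 in DOX1X and 86.3 ± 13.0 in DOX4X, with all groups overlapping.

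Timp1, a secreted inhibitor that binds the precursor of Mmp9 as well as active enzymes, separated the 3 groups in the order of PBS, DOX1X and DOX4X. It was 55.3, 59.0, 68.2 and 48.7 CPM in PBS 1 to 4, 33.2, 47.2 and 39.3 in DOX1X, and 27.9, 26.7, 23.9 and 23.4 in DOX4X. Every DOX4X library was below every DOX1X library, and every DOX1X library below every control. DOX4X stood at 44.0% of PBS (log2 difference -1.18, SE 0.13) and DOX1X at 69.0% (-0.54, SE 0.14, edgeR adjusted p = 0.515). Between DOX4X and DOX1X the difference was -0.65 (SE 0.13), and it did not pass with edgeR (adjusted p = 0.886) but did with DESeq2.

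Timp2, the inhibitor that Mmp14 uses as a bridge to the Mmp2 precursor, was lower in all 4 DOX4X libraries than in any control by a smaller margin. Its level was 1346, 1152, 1141 and 1038 CPM in PBS 1 to 4, 1025, 1050 and 857 in DOX1X, and 813, 871, 770 and 904 in DOX4X. The log2 difference between DOX4X and PBS was -0.48 (SE 0.10), and that between DOX1X and PBS was -0.26 (SE 0.11, edgeR adjusted p = 0.659) with DOX1X 2 above PBS 4. Timp3, which binds to the matrix and also inhibits ADAM proteinases, had 346, 281, 250 and 215 CPM in PBS 1 to 4, 107, 208 and 184 in DOX1X, and 183, 239, 148 and 194 in DOX4X. Like Timp4, it had a lower mean after 1 injection (167 ± 52.9 CPM) than after 4 (191 ± 37.4), and these groups overlapped. Its DOX1X libraries lay below every control (log2 difference -0.71, SE 0.23, edgeR adjusted p = 0.596), whereas DOX4X 2 lay above PBS 4 (-0.51, SE 0.21). Timp4 was the 1 member with a higher mean in DOX4X than in PBS (34.3 ± 12.6 against 28.0 ± 8.34 CPM). Its PBS 3 value was 15.5 CPM beside 31.6 to 32.5 in the other controls, and DOX4X 3 had 52.7 CPM beside 24.5 to 30.5 in the other libraries of its group. The log2 difference of 0.29 (SE 0.27) became 0.0057 without DOX4X 3 and 0.090 without PBS 3.

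Some of the reads could belong to neighbours on the other strand, because the library kit does not mark strand. In the GENCODE M21 annotation Timp1 lies within Syn1, Timp3 within Syn3 and Timp4 within Syn2, each on the opposite strand. Timp3 shares 1733 of its 8144 exon bases (21.3%) with Syn3, Mmp11 shares 155 bases (5.58%) with Chchd10, and Timp4 shares 90 bases (1.53%) with Syn2. The group means of these partners were at most 1.57 CPM for Syn1, 2.09 for Syn2, 0.187 for Syn3 and 7.12 for Chchd10.

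In the comparison of DOX4X with PBS, 9 of the 10 genes had a log2 difference below 0, with a median of -0.58 beside 0.014 over all 17838 genes tested, of which 47.8% were below 0. All 10 passed the filter on low counts. Mmp9, Mmp13 and Timp1 were past the threshold of an adjusted p of 0.05 in the lower direction, where 0.146% of all genes tested were. The levels of Mmp9, Mmp13, Timp1 and Timp2 lay below every control, as did 4.68% of all genes tested, and no member lay above every control, as 3.17% did (7.85% in either direction). These counts describe genes that were picked with this contrast in view. The number past the threshold was the same without PBS 4, was 2 without PBS 1, was 1 (Timp1) without PBS 2, PBS 3, DOX1X 1, DOX1X 2 or DOX4X 4, and was 0 without DOX4X 1, DOX4X 2 or DOX4X 3.

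The comparison of DOX1X with PBS asks about a single injection, and shares its controls with the comparison above. No member was past the threshold with edgeR (adjusted p from 0.515 to 0.950), where 0.00561% of all genes were in either direction, and 5 had an unadjusted p under 0.05. Of all 17838 genes tested, 1278 had an unadjusted p under 0.05 in this comparison. DESeq2 called 2 (Mmp13 and Mmp9), among 49 genes that it called in all. The log2 difference was below 0 for 9 of 10 (median -0.31 beside 0.0057 over all genes, of which 48.8% were below 0), and above 0 for Mmp11 (0.26, SE 0.16). Mmp9, Mmp13, Timp1 and Timp3 lay below every control, as did 3.82% of all genes tested, and none lay above, as 3.18% did (7% in either direction).

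DOX4X and DOX1X differ in schedule and in dose per injection, and this comparison shares its libraries with both others. No member was past the threshold with edgeR (adjusted p from 0.886 to 1.00, with 0.00561% of all genes past it), and 2 had an unadjusted p under 0.05. DESeq2 called Timp1. The log2 difference was below 0 for 8 of 10 (median -0.29 beside -0.0011 over all genes, of which 50.3% were below 0) and above 0 for Timp3 (0.20, SE 0.23) and Timp4 (0.39, SE 0.30). With a library left out, Timp3 ranged from -0.039 (without DOX1X 1) to 0.39 (without DOX1X 2) and Timp4 from 0.10 (without DOX4X 3) to 0.57 (without DOX1X 1). Mmp16 and Timp1 lay below every DOX1X library, as did 2.79% of all genes tested, and none lay above, as 3.19% did (5.98% in either direction).

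**Figure D2:**
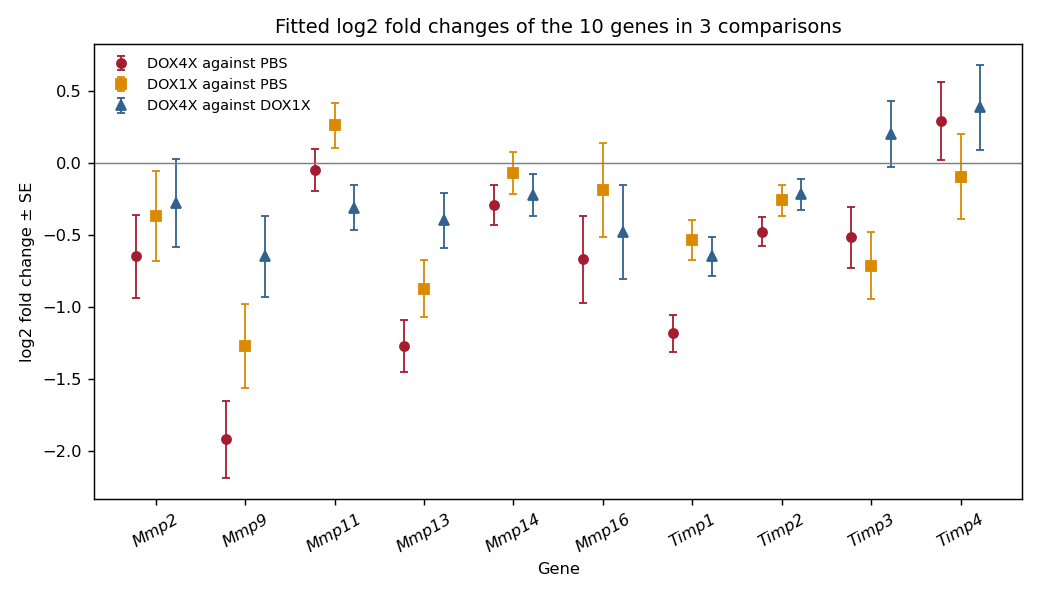
Fitted log2 differences (vertical axis) of the 10 genes (horizontal axis) in the 3 comparisons, with bars of 1 SE. The comparisons share libraries; Mmp9, Mmp13 and Timp1 have the lowest values between DOX4X and PBS (-1.92, -1.27 and -1.18), and the value for Timp4 lies above 0 (0.29).

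Flow cell could be held constant only in part. Within flow cell 1, where DOX1X 1 and 2 stand beside the controls, the log2 difference between DOX1X and PBS was -1.05 for Mmp13 (SE 0.17), -1.06 for Mmp9 (SE 0.34), -0.53 for Timp1 (SE 0.18) and -0.79 for Timp3 (SE 0.28), with edgeR adjusted p of 0.203 to 0.554. Within flow cell 2, where DOX4X stands beside DOX1X 3 as a lone library assumed to vary like the others, the difference was -0.69 for Mmp13 (SE 0.25), -0.62 for Timp1 (SE 0.15) and -0.095 for Mmp9 (SE 0.19). Mmp9 in DOX1X 3, at 21.4 CPM, was thus at the level of DOX4X on the same flow cell, and below the 36.0 and 36.6 CPM of its own group on flow cell 1. With flow cell as a term in the fit of all libraries, the difference between DOX4X and PBS was -1.74 for Mmp13 (SE 0.32), -1.15 for Timp1 (SE 0.26) and -1.16 for Mmp9 (SE 0.47, against -1.92 without the term), and no member was past the threshold (3 had an unadjusted p under 0.05). Of all 17838 genes tested, 1714 had such a p there. The flow cell term is estimated only from DOX1X 3 against DOX1X 1 and 2, so every shift with it rests on 1 library. In that fit Mmp9, Timp2 (-0.20, SE 0.18) and Mmp2 (-0.032, SE 0.56) were nearer to 0 by over 1.5 times, and Timp4 (0.70, SE 0.56) was farther from it. Mmp14 (0.17, SE 0.24) and Mmp11 (0.33, SE 0.27) had the opposite sign.

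Mmp13 made up most of the metalloproteinase counts, and its mean share of them was smaller in both doxorubicin groups. Shares, sums and ratios here are of CPM without division by length, so they serve to compare groups and not genes. Of the summed CPM of the 17 MMP genes tested, Mmp13 held 75.8% ± 5.49 in PBS (n = 4), 64.6% ± 8.16 in DOX1X (n = 3) and 62.0% ± 5.00 in DOX4X (n = 4). The ranges were 68.0 to 80.4%, 57.5 to 73.5% and 55.9 to 67.9%, so that DOX4X lay just below the controls and DOX1X overlapped with both. Per coding kilobase the mean shares were 78.8%, 67.8% and 65.2%. The sum of the 6 MMP members was 4760 ± 447 CPM in PBS, 2941 ± 401 in DOX1X and 2296 ± 360 in DOX4X. Without Mmp13 it was 990.0 ± 244, 881 ± 169 and 735 ± 50.5 CPM, and the sum of the 4 inhibitors was 1528 ± 186, 1210 ± 115 and 1090 ± 82.3 CPM.

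The ratio of enzyme to inhibitor transcripts within a library was computed on the log2 scale, as a description built from the members. Mmp13 to Timp1 was 6.03 ± 0.16 in PBS, 5.68 ± 0.29 in DOX1X and 5.92 ± 0.23 in DOX4X, with all groups overlapping. Mmp9 to Timp1 was 0.31 ± 0.58 in PBS, with PBS 1 at 1.16 and the other 3 between -0.095 and 0.16. It was -0.35 ± 0.065 in DOX4X, where all 4 libraries lay below the controls, and -0.37 ± 0.51 in DOX1X, which overlapped with both. The sum of the 6 enzymes to the sum of the 4 inhibitors was 1.64 ± 0.22 in PBS, 1.28 ± 0.25 in DOX1X and 1.06 ± 0.20 in DOX4X. The highest DOX4X library (1.32) was just under the lowest control (1.33). Without Mmp13, a ratio added after seeing the data, the values were -0.65 ± 0.20, -0.47 ± 0.17 and -0.57 ± 0.075, and all groups overlapped. Transcript ratios say nothing of the amount of active enzyme.

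**Figure D3:**
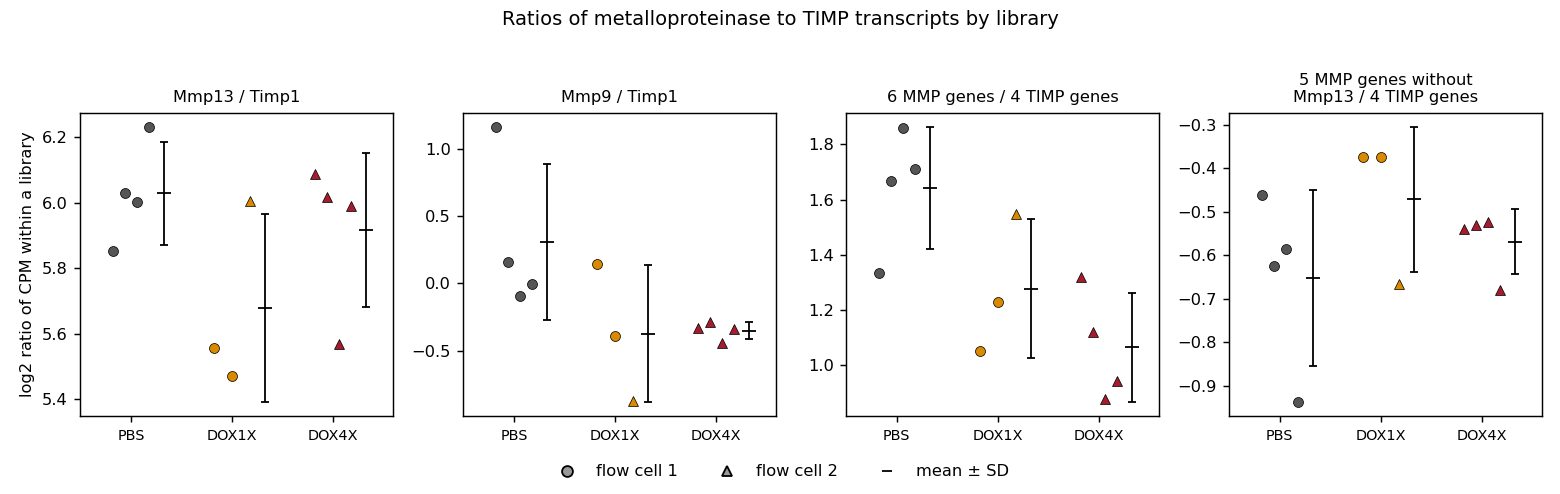
Each panel plots 1 log2 ratio of CPM within a library (vertical axis) for PBS, DOX1X and DOX4X, with circles for flow cell 1, triangles for flow cell 2 and bars for the mean ± SD. The ratio of 6 MMP genes to 4 TIMP genes lies lower in DOX4X (0.88 to 1.32) than in PBS (1.33 to 1.86), and without Mmp13 the groups overlap.

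Cells that are known to make these enzymes were followed through their markers. Osteoblasts and osteocytes make Mmp13, and their markers summed to 8467 to 14495 CPM in PBS, 8478 to 12438 in DOX1X and 6826 to 8863 in DOX4X. None was at 0 in all libraries. Between DOX4X and PBS, 8 of 9 tested had a log2 difference below 0, with none past the threshold. An unadjusted p under 0.05 was found for 3, and for 2471 of all 17838 genes tested. PBS 4 and DOX1X 3 had sums of 8467 and 8478 CPM, like those of DOX4X. Their Mmp13 was 3663 and 2528 CPM, beside 1133 to 1896 CPM in DOX4X. Ibsp and Col1a1 made up most of each sum and did not go together. PBS 4 had Ibsp at 6602 and Col1a1 at 832 CPM, and DOX1X 3 had 5237 and 1956 CPM. DOX4X had 3699 to 5168.5 CPM of Ibsp and 877 to 3320 CPM of Col1a1. The part of osteoblasts in the Mmp13 values was not tested. Chondrocyte markers summed to 126 to 535 CPM in PBS, 211 to 272 in DOX1X and 166 to 268 in DOX4X, with PBS 4 the lowest of all libraries.

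Neutrophils store Mmp9, and osteoclasts make it. Neutrophil markers summed to 166 to 579 CPM in PBS, 222 to 833 in DOX1X and 238 to 960 in DOX4X, with 12 of 12 log2 differences above 0 between DOX1X and PBS and 9 of 12 between DOX4X and PBS, none past the threshold (6 and 1 with an unadjusted p under 0.05). Of all 17838 genes tested, 1278 and 2471 had such a p in these comparisons, in the same order. Mean neutrophil sums were 591 CPM in DOX1X and 578 in DOX4X against 385 in PBS. Mpo was the largest part of the sum in every library, at 54.7 to 624 CPM. PBS 1, the library with the most Mmp9 (124 CPM), had a neutrophil sum of 238 CPM. The part of neutrophils in the Mmp9 values was not tested. Mmp8, the collagenase of neutrophils, was at most 5.26 CPM in any library. Osteoclast markers, of which 7 of 10 were in the table, summed to 333 to 488 CPM in PBS, 376 to 652 in DOX1X and 309 to 361 in DOX4X, with PBS 1 highest among the controls and DOX1X 2 highest of all. These sums were mostly Ctsk (182 to 279 CPM) and Itgb3 (41.2 to 407 CPM). Acp5 was 1.33 to 3.88 CPM in PBS, 2.68 to 7.07 in DOX1X and 4.14 to 9.14 in DOX4X. Between DOX4X and PBS, 4 of 6 tested were below 0 and 2 above, none past the threshold (1 of each with an unadjusted p under 0.05). The part of osteoclasts in the Mmp9 values was not tested. The osteoclast markers Calcr, Ocstamp and Dcstamp were not analysed here, and no marker of either list was at 0 in all libraries.

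**Figure D4:**
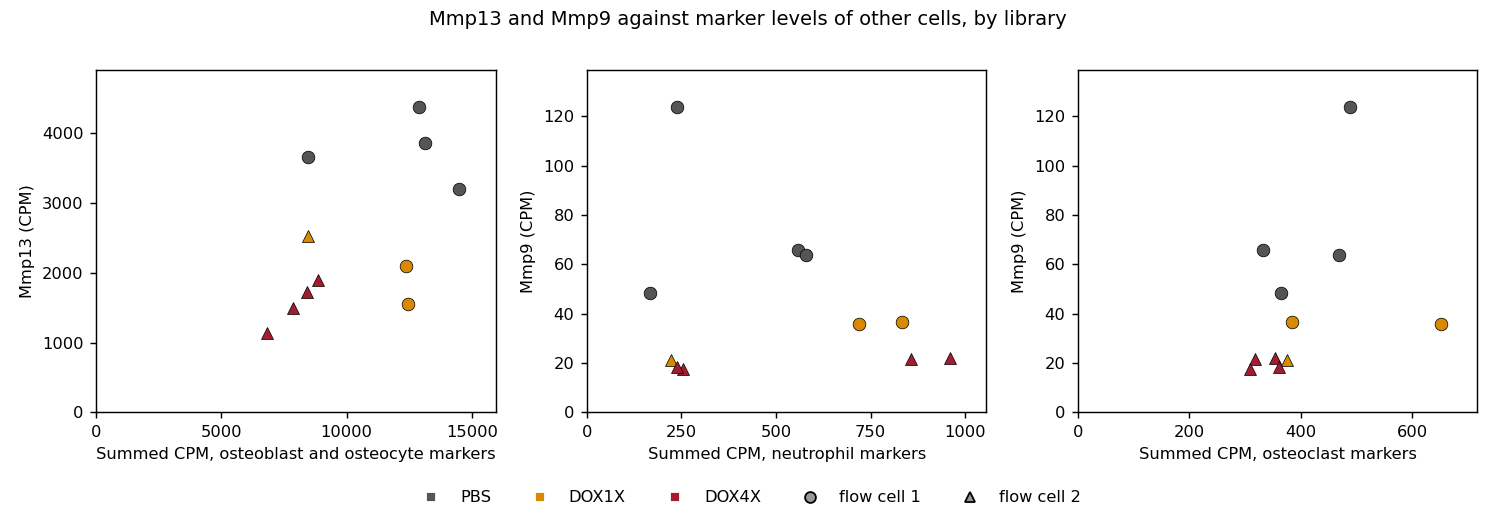
The level of Mmp13 (left) and Mmp9 (middle and right) in CPM against the summed CPM of osteoblast and osteocyte, neutrophil and osteoclast markers, with 1 point for each library, coloured by group and shaped by flow cell. Mmp13 in PBS 4 and DOX1X 3 (3663 and 2528 CPM) lies above DOX4X at a like osteoblast sum. That sum joins a low Col1a1 (832 CPM) with an Ibsp of 6602 CPM in PBS 4. PBS 1 has the highest Mmp9 (124 CPM) at a neutrophil sum of 238 CPM. The part of these cells in either gene was not tested.

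Summed levels of the markers of other blood cells and of vessels overlapped between treated and control libraries in every list. Erythroid markers summed to 132 to 305 CPM in PBS, 232 to 565 in DOX1X and 288 to 656 in DOX4X, and monocyte and macrophage markers to 73.1 to 133, 96.96 to 223 and 124 to 240 CPM. B lineage markers summed to 452 to 500.2 CPM in PBS, 478 to 522 in DOX1X and 463 to 598 in DOX4X. Ebf1 made up most of each B lineage sum, at 374 to 457 CPM. Cd79a, also on that list, was 10.9 to 21.8 CPM in PBS, 20.1 to 32.5 in DOX1X and 21.4 to 65.1 in DOX4X. Between DOX4X and PBS, log2 differences were above 0 for 9 of 9 erythroid, 9 of 10 B lineage and 6 of 9 macrophage markers. None was past the threshold, and 8, 7 and 1 had an unadjusted p under 0.05, beside 2471 of all 17838 genes tested. With a covariate for 40 markers of neutrophils, macrophages, B cells and erythroid cells, the log2 difference between DOX4X and PBS was -1.37 for Mmp13 (SE 0.25), -2.01 for Mmp9 (SE 0.38) and -1.29 for Timp1 (SE 0.16). In that fit no member was past the threshold with edgeR (adjusted p from 0.0756 for Timp1). An unadjusted p under 0.05 was found for 5, and for 1851 of all 17838 genes tested. The covariate score was -1.03 to -0.11 in PBS, -0.283 to 0.931 in DOX1X and -0.205 to 0.732 in DOX4X. Score and treatment were thus partly tied, and this fit cannot fully tell them apart. Endothelial markers summed to 137 to 438 CPM in PBS, 179 to 288 in DOX1X and 396 to 699 in DOX4X. Of these markers, 10 of 10 had log2 differences above 0 between DOX4X and PBS, 5 with an unadjusted p under 0.05. Between DOX1X and PBS, 10 of 10 were below 0. None was past the threshold in either comparison. The part of endothelial cells in the values of the members was not tested.

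None of the remaining MMP genes was past the threshold in any of the 3 comparisons. Of 17 listed, 12 were in the table and 11 were tested, with 4 log2 differences above 0 and 7 below between DOX4X and PBS (median -0.17, and 0 with an unadjusted p under 0.05). Of all 17838 genes tested, 2471 had such a p in that comparison. Mmp23, a membrane-anchored enzyme, had the highest mean of these, with 145 ± 5.58 CPM in PBS, 155 ± 6.64 in DOX1X and 146 ± 23.0 in DOX4X (log2 difference 0.018, SE 0.099). Per coding kilobase in PBS it ranked 5, just above Mmp2, and per exon kilobase 6, below Mmp2. Mmp17 (-0.26, SE 0.14) and Mmp19 (-0.17, SE 0.10) followed, and both ranked above Mmp16. The genes Mmp1a, Mmp1b, Mmp7, Mmp12 and Mmp20 were not analysed here.

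Of the secreted ADAMTS proteinases, which cut proteoglycans and trim procollagen, 15 of 19 were tested and none was past the threshold (4 above 0, 11 below, median -0.23, and 3 with an unadjusted p under 0.05). Among all 17838 genes tested, 2471 had such a p. Adamts2, a procollagen N-proteinase, had the highest mean, with 944 ± 139 CPM in PBS and 719 ± 28.7 in DOX4X (-0.39, SE 0.12, edgeR adjusted p = 0.209). Adamts1 (-0.26, SE 0.15) and Adamts5 (-0.17, SE 0.11), which cut aggrecan, had values of -0.50 and -0.34 after 1 injection. Of 12 membrane ADAM proteinases, all tested, 5 were above 0 and 7 below (median -0.11), none passed, and the unadjusted p was under 0.05 for 2. Adam9 had -0.39 (SE 0.090, edgeR adjusted p = 0.116), while the sheddases Adam10 (-0.14, SE 0.16) and Adam17 (0.020, SE 0.11), which Timp3 inhibits, were nearer to 0.

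Among 14 activators and binding partners of MMPs and TIMPs, such as furin, plasminogen activators and the membrane inhibitor Reck, 10 were below 0 and 4 above (median -0.20). None was past the threshold, and the unadjusted p was under 0.05 for 7, beside 2471 of all 17838 genes tested. The most abundant were Itgb1, an integrin chain (-0.31, SE 0.097, edgeR adjusted p = 0.207), Cd63, a Timp1 receptor (-0.21, SE 0.090, edgeR adjusted p = 0.324), and Bsg, known as an inducer of MMPs (-0.097, SE 0.079, edgeR adjusted p = 0.638). Lcn2 on this list is also a neutrophil marker. Of 12 AP-1 subunits and bone transcription factors, 11 were tested, 3 were above 0 and 8 below (median -0.18), none passed, and the unadjusted p was under 0.05 for 3. Fos (-0.21, SE 0.11), Jun (-0.23, SE 0.13) and Junb (-0.29, SE 0.13), the most abundant, had values of 0.076, 0.13 and 0.092 after 1 injection. The part of these factors in the values of the members was not tested.

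Of 16 matrix proteins that MMPs cut, 15 were tested, 14 were below 0 and 1 above (median -0.38). Among them 1 was past the threshold, Spp1 in the lower direction, where 0.146% of all genes tested were. Spp1 encodes osteopontin, a substrate of several MMPs, and had 7971 ± 1736 CPM in PBS, 4007 ± 104 in DOX1X and 2662 ± 713 in DOX4X. Ibsp, bone sialoprotein, was also an osteoblast marker here and had 6777 ± 919, 6459 ± 1096 and 4377 ± 656 CPM (-0.63, SE 0.15, edgeR adjusted p = 0.120). Col1a2, a chain of type I collagen, had a log2 difference of -0.44 (SE 0.28), with SDs of 2148 CPM in PBS and 979 in DOX4X.

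**Figure D5:**
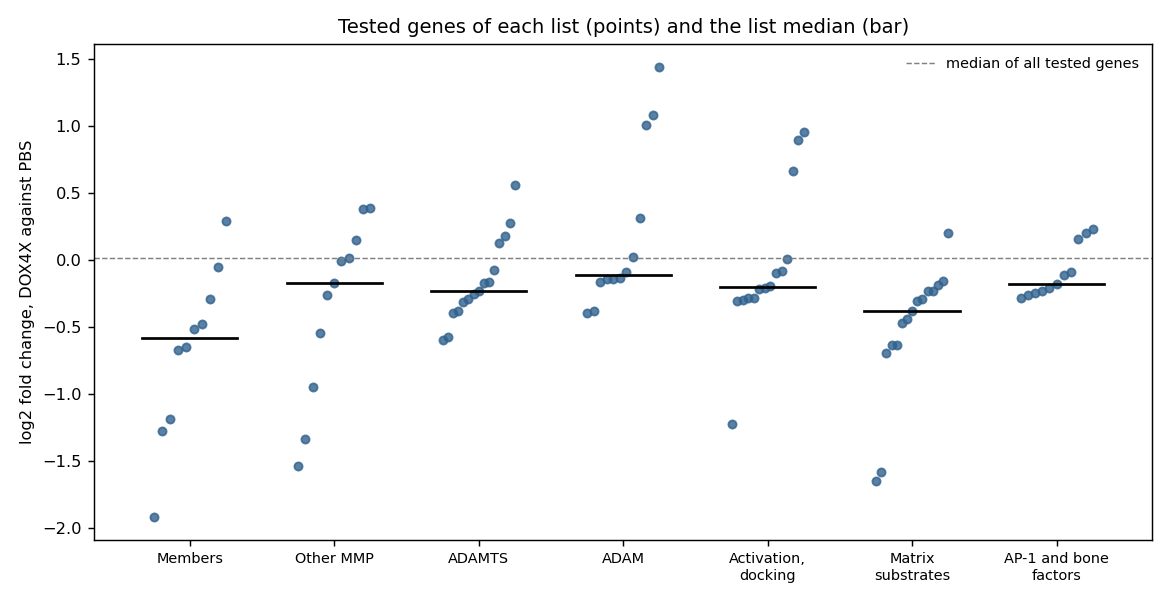
Log2 difference between DOX4X and PBS (vertical axis) for each tested gene (points) of the 10 members and 6 lists of related genes (horizontal axis), with the median of each list as a bar and the median of all tested genes as a dashed line. The members were picked with these values known; the medians of the 6 other lists lie between -0.38 and -0.11.

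The genes whose levels were most like those of Mmp13, Mmp9 and Timp1 over the 11 libraries were found by Pearson's r of log2 CPM among 11053 genes with a mean of at least 5 CPM. This is a description over libraries that share group, flow cell and depth, and r after removal of the group means is given beside it. For Mmp13 these were Bmp8a (r = 0.95, 0.71 within groups), Tmem123 (0.95, 0.71), Flrt2 (0.93, 0.63), Timp1 (0.92, 0.63) and Tacc1 (0.92, 0.80). For Mmp9 they were Pja2 (0.98, 0.96), Ccdc127 (0.97, 0.87), Tmod2 (0.97, 0.83), Timp2 (0.96, 0.88) and Tug1 (0.96, 0.83). Timp1 was most like Tmem123 (0.95, 0.69), Itgb5 (0.94, 0.73), Fam174b (0.94, 0.70), Spp1 (0.94, 0.63) and Qsox1 (0.94, 0.37).

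Within groups the members varied in unlike ways. Mmp9, Mmp2, Mmp14 and Timp2 went together, with r of 0.91 for Mmp9 and Mmp14, 0.90 for Mmp2 and Mmp14, 0.90 for Mmp14 and Timp2, and 0.88 for Mmp9 with both Mmp2 and Timp2. PBS 1 was the highest and PBS 4 the lowest control for each of these 4 genes. Mmp13 did not follow them, with r of -0.31 to Mmp9 and -0.30 to Mmp14 within groups, although Mmp9 and Mmp13 had r of 0.78 over all libraries. Timp4 went against Mmp13 (-0.83) and Timp1 (-0.65) within groups. These r include DOX4X 3, with Timp4 at 52.7 CPM and the lowest Mmp13 of its group (1133 CPM). They also include PBS 3, with Timp4 at 15.5 CPM and the highest Mmp13 and Timp1 of the controls (4373 and 68.2 CPM). The r without these libraries was not computed.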

How the data were processed

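The deposited values are raw counts per gene, 1 column for each of the 11 libraries, with no normalization. Per the submitters' processing notes, the authors worked on the build GRCm39 with featureCounts 2.0.1, STAR 2.7.9a, Trim Galore 0.6.6, SAMtools 1.17, MultiQC 1.7 and FastQC 0.11.5. Which annotation and strand setting they counted with, and how they handled multimapping reads, is not given in the sources used here. The SMART-Seq v4 Plus kit was used on poly(A) RNA, per the labels' protocols.

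From these counts, filterByExpr of edgeR 4.0.16 (R 4.3.3) kept 17838 genes, libraries were scaled with TMM factors, and all 11 were fitted with group means. The 3 differences between groups were tested by two-sided quasi-likelihood tests at an adjusted p of 0.05 (Benjamini-Hochberg, all genes kept), and p-values measure the spread between these libraries. SE of a log2 difference was taken from its F statistic. The script was tested on simulated data. The members, the gene lists and the tests were chosen with earlier results of these data known. Named are all 10 members, and the 3 genes of highest mean CPM and any past the threshold in each related list. Also named are 2 markers at most of each marker list and the 5 genes most like Mmp13, Mmp9 and Timp1. Mmp8, Lcn2 and Acp5 were added after their values were seen. Coding and exon lengths came from GENCODE M21. Alternatives were RLE and upper quartile scaling, no filter and a filter of 5 CPM in 3 libraries, DESeq2 1.42.0, limma-voom (limma 3.58.1) with quality weights, the 2 groups compared on their own, a block for the replicate number, flow cell as a term or held fixed, a blood marker covariate, and each library left out.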

Additional observations from a re-analysis of the deposited data

Results flagged for a closer look

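In the 28 groups of 4 libraries examined (levels of the members and ratios in PBS and DOX4X), 2 had 1 library far from the others, and chance flags about 1 in 20 such groups. Timp4 in PBS 3 was 15.5 CPM, and its gap to the nearest control made up 0.945 of the range of the group, more than Dixon's test allows at 95%. The log2 ratio of the MMP members without Mmp13 to the 4 inhibitors was -0.68 in DOX4X 4, with a gap of 0.887 of the range of its group, whose other 3 libraries lay between -0.54 and -0.52.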

How the results depend on the processing

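Between DOX4X and PBS, Mmp13 ranged from -1.74 to -1.15, Mmp9 from -2.08 to -1.16 and Timp1 from -1.29 to -1.09 over all settings. The 26 genes past the threshold there became 590 with DESeq2, 56 with limma-voom, 1 with the compared groups alone, 6 with flow cell as a term, 0 with the blood marker covariate (edgeR, 1851 with an unadjusted p under 0.05) and 0 to 80 with each library left out (80 without PBS 4, and 0 without DOX4X 1, 2 or 3). The 3 members past it became 4 with DESeq2 (with Timp2 added), 1 with the compared groups alone, 0 with flow cell as a term or the blood marker covariate, and 0 to 3 with a library left out. Between DOX1X and PBS the genes past it were 49 with DESeq2 (2 members), 5 within flow cell 1 and 1 to 2 with a library left out. Between DOX4X and DOX1X they were 27 with DESeq2 (1 member) and 1 to 2 with a library left out. With the replicate block, genes past the threshold were 10, 6 and 2 in the 3 comparisons, with 2 members (Mmp9 and Timp1), 0 and 0. Same-numbered libraries had residual r from -0.119 to 0.347, and other pairs from -0.352 to 0.353. The numbers were not taken as pairs, though such r cannot exclude a shared day or preparation.

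Small differences changed sign, and the cause was not tested. With flow cell as a term, those between DOX4X and PBS became 0.33 for Mmp11, 0.17 for Mmp14, -0.023 for Mmp23, 0.016 for Mmp19, 0.038 for Adamts2, 0.44 for Adam10 and 0.18 for Col1a2. Between DOX1X and PBS they became 0.068 for Mmp14 and 0.029 for Timp4, and within flow cell 1 they were 0.066 and 0.026. Between DOX4X and DOX1X they became 0.16 for Mmp2 and 0.099 for Mmp14, and within flow cell 2 they were 0.16 and 0.10. Timp4 between DOX1X and PBS was 0.14 with limma-voom and 0.25 with the blood marker covariate, and Adam17 between DOX4X and PBS was -0.068 with that covariate. With a library left out, differences between DOX4X and PBS reached -0.15 to 0.029 for Mmp11, -0.087 to 0.099 for Mmp23 and -0.046 to 0.058 for Adam17. Between DOX1X and PBS they reached -0.18 to 0.068 for Mmp14 and -0.30 to 0.029 for Timp4, and between DOX4X and DOX1X -0.46 to 0.0028 for Mmp2 and -0.039 to 0.39 for Timp3.

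Limits: each group has 3 or 4 libraries, and Mmp16 rests on 157 to 646 counts per library, against 37658 to 135123 for Mmp13. RLE and upper quartile scaling and both filters changed no count of members past the threshold.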
